A study of Mus musculus with 4 samples.

Results

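The genes described here carry signals from hormone receptors through the G protein Gq to phospholipase C beta, the route that opens receptor-operated TRPC channels. They were chosen by name, as 10 genes: the ligand Edn1, the receptors Agtr1a, Ednra, Ednrb, Adra1a and Adra1b, the G protein alpha subunits Gnaq and Gna11, and the phospholipases Plcb1 and Plcb3. The platform annotation gave 8 of them 1 probe each, out of 23473 gene probes on the array. Ednra and Adra1a matched no probe by symbol or Entrez ID and were not analysed here.

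RNA came from the ventricles of male 129SV mice. There were 2 wild-type samples and 2 in which Trpc6 was genetically deleted (called the knockout), each on 1 single-colour (Cy5) oligonucleotide array. The comparison asks which transcripts differ in a ventricle that lacks the TRPC6 channel. The labels give no age and no treatment, and do not say how the deletion was made or whether the samples of a group came from separate animals. The p-values therefore reflect only how far these 4 samples scatter, with the variance partly shared over all genes tested, and that scatter may be technical.

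In this pathway a ligand such as endothelin 1, angiotensin II or noradrenaline binds its receptor, and the receptor loads the alpha subunit of Gq or G11 with GTP. The alpha subunit then switches on phospholipase C beta, which splits the membrane lipid PIP2 into inositol trisphosphate and diacylglycerol. Inositol trisphosphate releases calcium from stores, while diacylglycerol activates protein kinase C and opens the diacylglycerol-sensitive TRPC channels, TRPC6 among them. In the heart this route is known for hypertrophic signalling in myocytes and for constriction of vessels.

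The typical gene probe lay close above background, with a median of 95.5 to 106 units per array against 78.4 to 87.5 units for blank spots, and 76.3% to 83.2% of gene probes were above background. The detection threshold of an array, the 95th percentile of its blank and negative control spots, lay at 80.8 and 91.5 units for the wild-type arrays, against 85.5 and 83.3 units on the knockout arrays. Trpc6 itself read below that threshold on all 4 arrays, so the deletion could not be checked from its probe. Markers of cardiomyocytes were above background in 8 of 8 cases, and so were those of endothelial cells, of smooth muscle cells and pericytes, and of fibroblasts. Red blood cell markers had a summed level of 1064 and 2727 units in wild type against 3216 and 3416 units in the knockout, and their part in the results was not tested.

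All 8 member probes were above the threshold on all 4 arrays, which makes 32 of 32 measurements. Adra1b was the closest to it, at 1.06 to 1.12 times the threshold. Gna11 was the farthest, at 2.51 to 3.29 times. The other 6 members lay between 1.16 and 1.60 times the threshold. Levels of different probes are not comparable as amounts of RNA, and the members are therefore compared only between arrays. The local background around the Gna11 spot reached 262 and 197 units in wild type against 268 and 254 units in the knockout, beside spot medians of 265 and 229 units and of 281 and 249.8 units. Only Gna11 on the second knockout array read below its own local background.

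**Figure D1:**
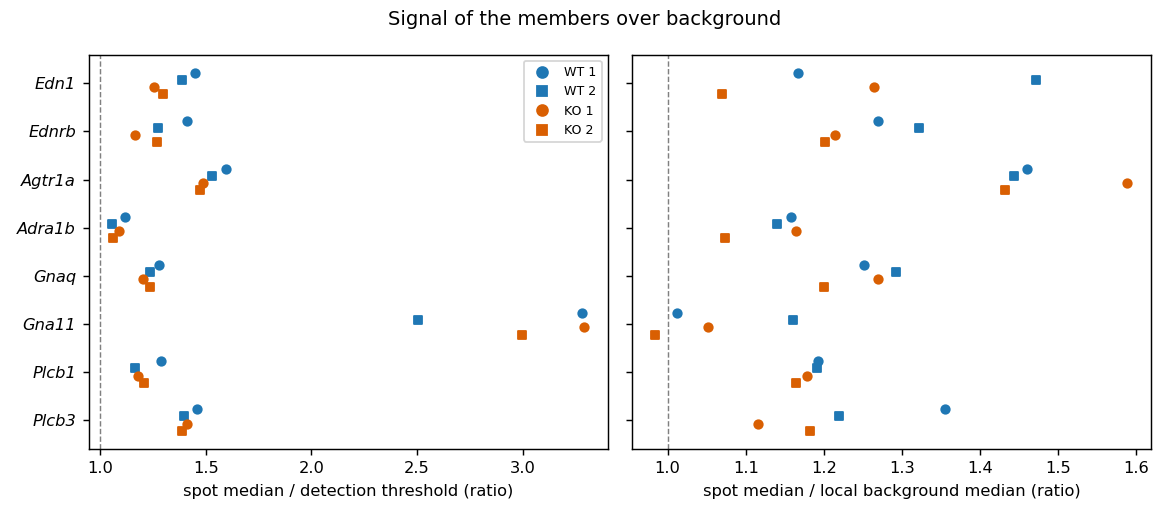
Spot median of each member on each array (circles: replicate 1, squares: replicate 2, blue: wild type, orange: Trpc6 knockout), divided by the detection threshold of that array (left) or by the local background of the same spot (right). All points on the left lie above 1, from 1.06 for Adra1b to 3.29 for Gna11, and on the right 1 point, Gna11 on the second knockout array, lies below 1, at 0.984.

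None of the 8 members differed between the groups by the test over all genes. In that test, limma compared normalized log2 intensities of 15955 genes and adjusted p-values by Benjamini-Hochberg over all of them, and the smallest adjusted p among the members was 0.727, for Edn1. Across all genes 0 (0% of 15955) had an adjusted p under 0.05. At an unadjusted p under 0.05 there was 1 member, Edn1, among the 8, while 6.74% of all genes tested passed that mark, 3.08% with a lower and 3.67% with a higher value in the knockout. Of the 8 members 6 were lower and 2 higher in the knockout. With 1 array left out the count of lower members was 4 without the first wild-type array, 7 without the second, 7 without the first knockout array and 5 without the second, and it was 7 with the local background subtracted. Scaling to the 75th percentile in place of quantile normalization moved the median of all genes to 0.039. Under it 4 members were below 0, and 7 were below that median. The median log2 difference of the members was -0.025, beside 0.0017 over all genes. The median absolute difference was 0.044 for the members and 0.043 for all genes.

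The groups did not overlap in 4 members, Edn1, Ednrb, Agtr1a and Gnaq, and each of these was lower in the knockout. Over all genes tested the groups did not overlap in 36.8%, and 17.4% had both knockout arrays below both wild-type arrays. With 2 arrays against 2, an exact two-sided permutation test of a single gene cannot give a p below 0.333. Normalized log2 values carry an offset of 50 units that shrinks differences of dim probes, and the values of the authors' table, which has no such offset, are given beside them.

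**Figure D2:**
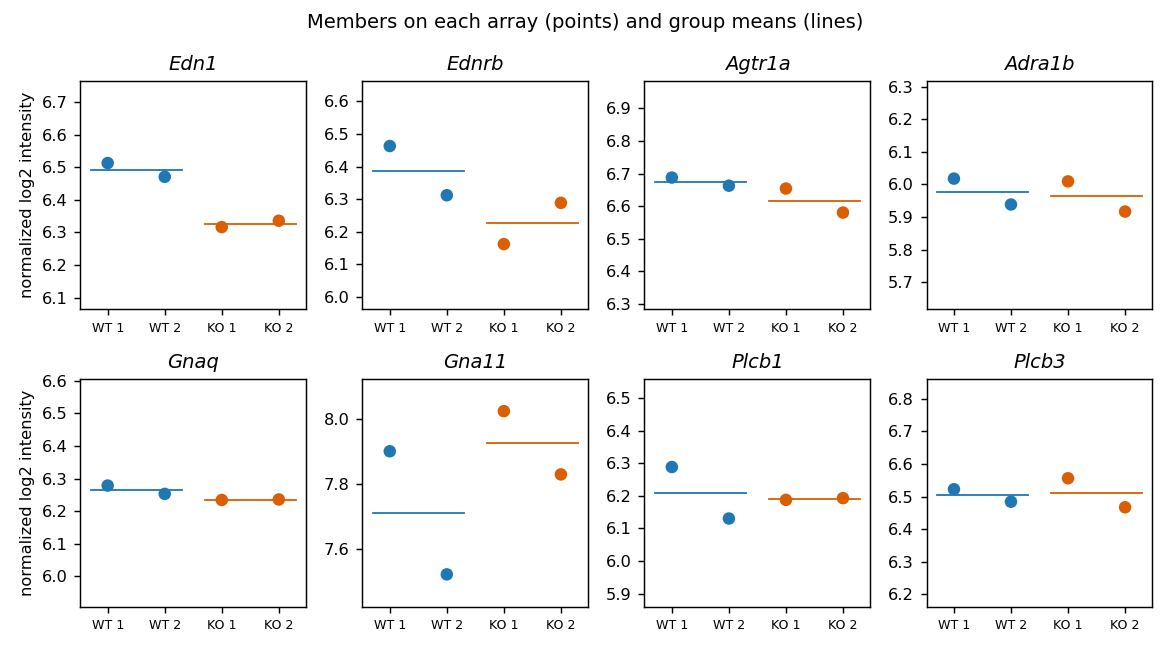
Normalized log2 intensity of the 8 members on each array (points) with the mean of each group (lines), every panel spanning the same range of the log2 scale. Edn1 shows the widest gap between its groups, 0.13 on the log2 scale, and Gna11 the widest spread within wild type, from 7.52 to 7.90.

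Edn1 encodes the precursor of endothelin 1, a constrictor peptide made mainly by endothelial cells, and was the ligand of the set. Its spot median read 117 and 127 units in wild type against 107 and 108 units in the knockout. Less the blank median of each array, this left 38.6 and 39.1 units in wild type against 24.3 and 26.9 units in the knockout. After normalization its log2 level was 6.51 and 6.47 in wild type against 6.32 and 6.34 in the knockout. Both knockout arrays were below both wild-type arrays, and the gap of 0.13 between the groups was wider than the range within wild type (0.042) or within the knockout (0.020). The difference was -0.17 ± 0.04 (log2, limma standard error), or 0.892-fold with a 95% interval of 0.828 to 0.960, at an unadjusted p of 0.0112 and an adjusted p of 0.727. The local background around the Edn1 spot was uneven, at 100 and 86.0 units in wild type against 84.7 and 101 units in the knockout. With it subtracted the difference was -0.17 ± 0.13. In the authors' table Edn1 was at 37.8 and 31.3 units in wild type against 23 and 27.5 units in the knockout, a ratio of their means of 0.731. In that table its log2 difference of -0.45 had an unadjusted limma p of 0.0742. Without the first or the second knockout array the unadjusted limma p was 0.0689 and 0.0512, with differences of -0.16 and -0.18 on the normalized scale, and with the local background subtracted it was 0.272.

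Endothelial markers were measured beside Edn1. All 8 of 8 were above background, 5 of them lower and 3 higher in the knockout, with a median log2 difference of -0.061. Their summed normalized intensity was 2265 and 2805 units in wild type against 2209 and 2434 units in the knockout, so the groups overlapped in this sum. Cav1 led the sum, at 10.16 and 10.73 in wild type against 10.16 and 10.38 in the knockout (log2), so the sum mostly follows that gene. Cdh5 was lower on both knockout arrays and Vwf higher on both. In bulk tissue, fewer cells of a type and less RNA per cell cannot be told apart, and the part of endothelial content in the Edn1 difference was not tested.

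Of the receptors, Ednrb had the largest difference. It encodes the endothelin B receptor, which endothelial cells carry and which also clears endothelin from the circulation. Its spot median was 114 and 116 units in wild type against 99.4 and 106 units in the knockout. The normalized log2 level was 6.46 and 6.31 in wild type against 6.16 and 6.29 in the knockout. The groups were separated by 0.023, less than the range of 0.15 within wild type against 0.13 within the knockout. The difference was -0.16 ± 0.08 (log2), or 0.894-fold with an interval of 0.778 to 1.03, and its adjusted p was 0.773. Leaving out single arrays moved it from -0.24, without the second wild-type array, to -0.087, without the first wild-type array, and it was -0.10 without the first knockout array. The authors' table had 34.9 and 23.1 units in wild type against 15.7 and 24.8 units in the knockout. There the second knockout array was above the second wild-type array and the groups overlapped.

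Agtr1a encodes the main angiotensin II receptor of the heart and vessels. Its spot median was 129 and 139.96 units in wild type against 127 and 123 units in the knockout. The normalized log2 level was 6.69 and 6.66 in wild type against 6.65 and 6.58 in the knockout, with 0.009 between the groups. The difference of -0.058 ± 0.045 (adjusted p 0.856) was smaller than the range of 0.074 within the knockout. It was -0.095 without the first knockout array and -0.021 without the second, and 0.067 after subtraction of the local background, with the sign turned. In the authors' table Agtr1a was at 49.6 and 42.1 units in wild type against 41.9 and 42.4 units in the knockout, where the groups overlapped. Fibroblasts and pericytes are known to carry this receptor. The summed level of 8 fibroblast markers was 4446 and 4210.4 units in wild type against 3755 and 3253 units in the knockout, while the sum over 8 markers of smooth muscle cells and pericytes was 3315 and 3063 units and 3680.4 and 3132 units. The fibroblast sum was led by Dcn, at 11.49 and 11.50 in wild type against 11.21 and 10.85 in the knockout (log2), and 5 of the 8 fibroblast markers were lower and 3 higher. Acta2 led the sum of smooth muscle cells and pericytes, at 10.38 and 10.25 in wild type against 10.86 and 10.39 in the knockout. Of these 8 markers 6 were lower and 2 higher, with a median log2 difference of -0.027. The part of these cell types in the Agtr1a value was not tested.

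Adra1b encodes the alpha 1B adrenergic receptor, which responds to noradrenaline and adrenaline. Its spot median of 90.4 and 96.6 units in wild type against 92.9 and 88.2 units in the knockout was within 12.0 units of the blank median on every array. Normalized log2 values were 6.02 and 5.94 in wild type against 6.01 and 5.92 in the knockout. The groups overlapped, with 1 high and 1 low array in each. The difference of -0.015 ± 0.055 (adjusted p 0.977) was smaller than the range within either group, and its sign turned with 1 array left out, to 0.025 without the first wild-type array and 0.031 without the second knockout array. Median scaling gave 0.00065 and 75th percentile scaling 0.034, below the medians of all genes under these scalings, 0.0055 and 0.039.

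The G protein subunits had the smallest and the largest standard error of the 8 members. Gnaq encodes the alpha subunit of Gq. It read 103 and 113 units in wild type against 103 and 103 units in the knockout, with normalized log2 values of 6.28 and 6.25 and of 6.23 and 6.24. Both knockout arrays lay below both wild-type arrays by 0.017. The difference was -0.031 ± 0.038, or 0.979-fold with an interval of 0.913 to 1.05, and the adjusted p was 0.912. On the log2 scale with its offset, this interval was the narrowest among the members. Limma takes part of each gene's variance from all genes, so the width does not reflect the scatter of Gnaq alone. In the authors' table the second knockout array, at 22 units, was above the second wild-type array, at 20.3 units.

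Gna11 encodes the closely related alpha subunit of G11 and was the brightest member probe by spot median. Its spots read only 0.984 to 1.16 times their local background. Its normalized log2 level was 7.90 and 7.52 in wild type against 8.02 and 7.83 in the knockout. The first wild-type array lay between the knockout arrays, and the second wild-type array was the low one. The difference was 0.21 ± 0.15, or 1.16-fold with an interval of 0.886 to 1.52, at an adjusted p of 0.829. Without the second wild-type array it was 0.026, and without the first wild-type array it was 0.40, with an unadjusted limma p of 0.0122 and an adjusted p of 0.216. It was 0.12 without the first knockout array. With the local background subtracted it was -0.13. The authors' table had 183 and 114 units in wild type against 189 and 173 units in the knockout, a ratio of 1.21.

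Of the phospholipases, Plcb1 encodes an isoform activated by Gq family alpha subunits. It read 104 and 106 units in wild type against 101 and 101 units in the knockout. Its normalized log2 level was 6.29 and 6.13 in wild type against 6.19 and 6.19 in the knockout. Both knockout arrays lay between the wild-type arrays, whose range was 0.16. The difference was -0.019 ± 0.064 (adjusted p 0.975), and it was 0.060 without the first wild-type array and -0.098 without the second.

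Plcb3 encodes another isoform that both Gq alpha and G beta-gamma subunits can activate. It read 118 and 128 units in wild type against 121 and 116 units in the knockout, or 6.52 and 6.48 and 6.56 and 6.47 on the normalized log2 scale. The wild-type arrays lay between the knockout arrays. The difference was 0.0083 ± 0.049 (adjusted p 0.988), with an interval of 0.919-fold to 1.10-fold, and its sign turned under several settings. It was -0.16 with the local background subtracted, -0.036 without the first knockout array, -0.011 without the second wild-type array and -0.0070 with median scaling.

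**Figure D3:**
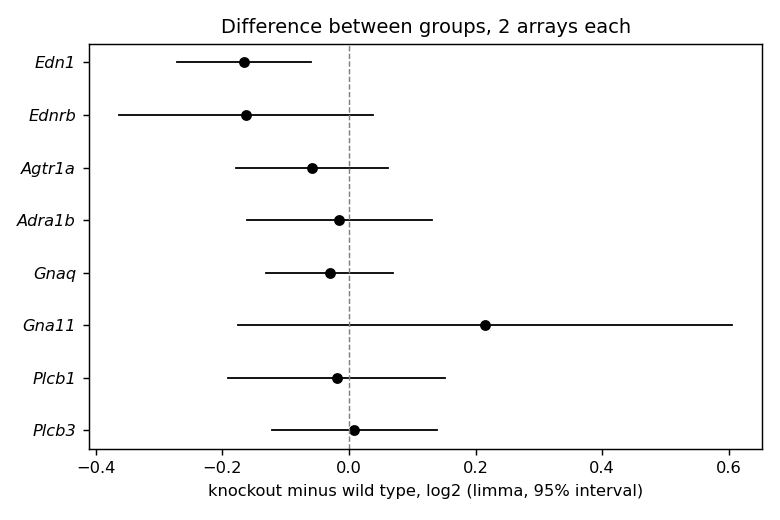
Knockout minus wild-type difference of each member (point, normalized log2 scale) with its 95% interval from limma, 2 arrays per group. The interval of Edn1, -0.27 to -0.059 before any adjustment for the number of genes, is the only 1 of the 8 that does not include 0, and that of Gna11 is the widest, from -0.17 to 0.60.

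The intervals set what these arrays could show. For Gnaq, Plcb3, Agtr1a, Adra1b and Plcb1 they ran from 0.876-fold at the lowest to 1.11-fold at the highest on the normalized scale. Because of the offset, a change of these dim probes would be larger before it was added. In the authors' table the ratio of knockout to wild-type means was 0.915 for Gnaq, 0.919 for Agtr1a, 0.917 for Plcb1, 0.883 for Adra1b, 1.01 for Plcb3 and 0.698 for Ednrb. That table put 6 of the 8 members lower in the knockout, as did the quantile-normalized values, and 0 of them had an unadjusted p under 0.05.

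**Figure D4:**
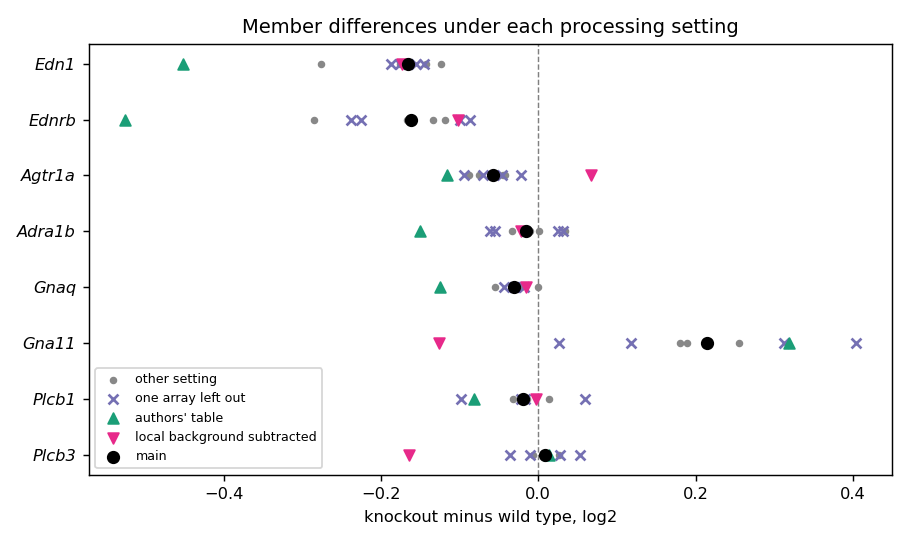
Knockout minus wild-type difference of each member (log2) as reported (black) and under 15 alternative settings. Edn1, Ednrb and Gnaq are below 0 under each of the 15, with Gnaq at -0.00065 under 75th percentile scaling. Changes of filter, choice of probe or variance model, or adding the replicate number, return the black value and cannot test its sign. Gna11 ranges from -0.13 to 0.40. The differences from the authors' table (green) are the lowest for Edn1 and Ednrb, at -0.45 and -0.53.

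The rest of the path was read from a list of 85 other genes, sorted by role, of which 76 had a probe and 72 were tested. Of the 72, 40 were higher and 32 lower in the knockout, with a median log2 difference of 0.0079 beside 0.0017 for all genes. None passed the test over all genes. At an unadjusted p under 0.05 there were 3 higher and 2 lower, together 6.94% of the list beside 6.74% of all genes and close to that background. Without the first wild-type array the list had 19 such genes (26.4%, beside 14.7% of all genes). It had 3 (4.17%) without the first knockout array and 3 without the second, beside 5.57% and 2.78% of all genes. The 5 genes depended on the source of the values: with the local background subtracted 1 of them, Rgs2, was among the 7 under the mark, and none was among the 3 of the authors' table, which were Hrh1, Plcd4 and Trpc5 (named after their values were seen).

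Of these 5 genes, 4 belonged to the G protein subunits and their regulators, where 14 genes were tested (28.6%, beside 6.74% of all genes). This share was read after the values were seen and was not tested. Rgs2 encodes a GTPase-activating protein that shuts off Gq. It was at 9.16 and 9.24 in wild type against 9.41 and 9.50 in the knockout (normalized log2), a difference of 0.26 ± 0.06 with an adjusted p of 0.727. Grk5 encodes a kinase that desensitises receptors. It was at 7.23 and 7.20 in wild type against 6.91 and 6.9998 in the knockout, a difference of -0.26 ± 0.05 with an adjusted p of 0.727, which was 0.061 with the local background subtracted. Gna13 encodes the alpha subunit of another G protein, G13. It was at 6.65 and 6.55 in wild type against 6.77 and 6.84 in the knockout, a difference of 0.20 ± 0.05. Rgs4, another GTPase-activating protein for Gq and Gi, is named outside the naming rule to complete the 5, at 7.18 and 7.44 in wild type against 7.06 and 6.98 in the knockout. Rgs2 and Rgs4 lay on opposite sides. The other RGS genes tested in this role, Rgs3 and Rgs5, had differences of -0.020 and -0.20, with overlapping groups. Of the 14 genes of this role 4 were higher and 10 lower, beside 8151 higher and 7803 lower over all genes.

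Among 15 other Gq-coupled receptors 9 were higher and 6 lower. P2ry2, a receptor for extracellular ATP and UTP, was the fifth gene under the unadjusted mark, at 6.90 and 6.80 in wild type against 7.10 and 7.03 in the knockout. Its difference was 0.22 ± 0.05 with an adjusted p of 0.727, and -0.13 with the local background subtracted. Of 5 genes for ligands and their processing 4 were higher, and the smallest p belonged to Ece2, an endothelin-converting enzyme, with a difference of 0.056 ± 0.046. Of 8 other phospholipases C 4 were higher and 4 lower. Plcb2, the isoform of blood cells, had the smallest p among them, with a difference of 0.11 ± 0.04 and an unadjusted limma p of 0.0595.

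Downstream of the phospholipase, 7 of 10 genes of phosphoinositide supply and the inositol trisphosphate branch were higher and 3 lower, and Itpkb, a kinase that consumes inositol trisphosphate, had the smallest p, with a difference of 0.10 ± 0.04. In the diacylglycerol branch of 16 genes 10 were higher and 6 lower, with differences between -0.076 and 0.11. Prkcq, a protein kinase C isoform, had the smallest p there and a difference of -0.076 ± 0.042. Of the TRPC channels that this branch opens or accompanies, 4 were tested, with differences of -0.074 ± 0.042 for Trpc5, -0.011 ± 0.044 for Trpc1, 0.015 ± 0.040 for Trpc4 and 0.0061 ± 0.040 for Trpc7. Trpc5, Trpc4 and Trpc7 were dim, with wild-type means of 5.95, 5.82 and 5.84 (normalized log2). Trpc4 was above background on only 1 wild-type array. In the authors' table the difference of Trpc5 was -0.69, with means of 8.1 units in wild type against 5 units in the knockout. The sign of Trpc1, Trpc4 and Trpc7 changed under 4, 2 and 3 of the alternative settings.

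**Figure D5:**
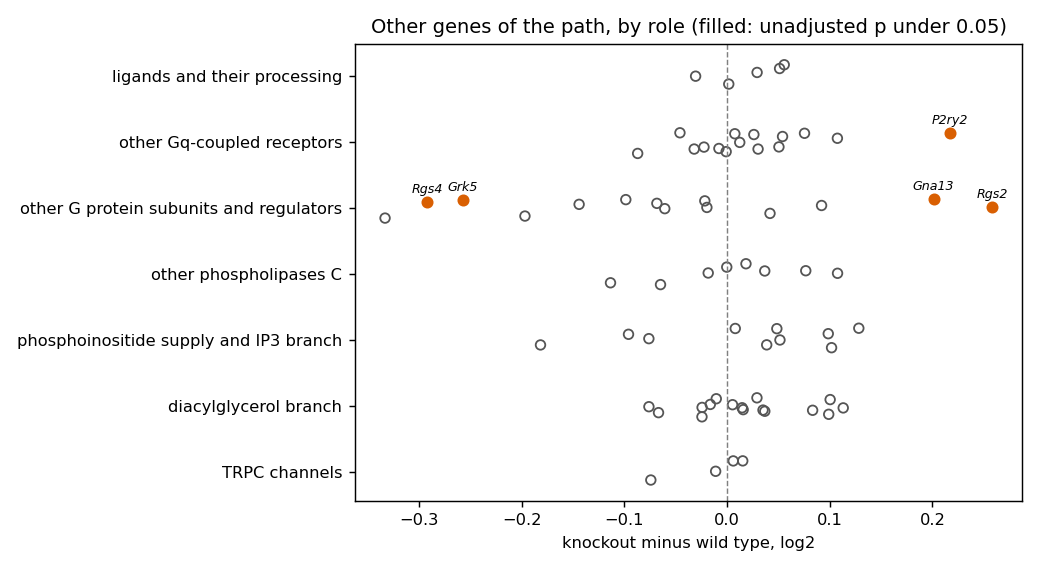
Knockout minus wild-type difference (normalized log2 scale) of the 72 other genes of the path, in rows by role, with some vertical scatter so that points stay visible. The 5 filled points have an unadjusted limma p under 0.05, and 4 of them are G protein subunits or regulators, 2 below 0 and 2 above. These are 28.6% of the 14 genes of that role, beside 6.74% of all genes, and the share was not tested.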

How the data were processed

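Total RNA was amplified with amino allyl nucleotides and labelled with Cy5, per the labels' protocols. The deposited scanner files hold linear intensities, per the file headers: the median of each spot and of its local background in the Cy5 channel. The headers list lines fitted between 3 scanner gains, with the way of joining them not given in the sources used here. A table of processed intensities was deposited too, which, set against the scanner values, was each array's spot median less 78.4 to 87.7 units, scaled to a column median of 25. Its direction and centring are thereby known, and the rule for its empty cells is not.

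Spot medians were corrected by normexp (limma 3.58.1, R 4.3.3, offset 50), and log2 values were quantile normalized over 23473 gene probes. Probes above the 95th percentile of 384 blank and 96 negative control spots on at least 2 arrays were kept, with the brightest probe for each of 15955 genes, named through the platform annotation (20690 probes with 1 symbol, 0 with several, 2783 unnamed). Groups were compared with lmFit and eBayes, two-sided, without covariates. The fit was also run on simulated data with changes of 2 log2 units, larger than any member difference. That run does not show how well changes of the members' size would be found. Members and lists were chosen with earlier results of these data known. Named were all members and, per role of the list, up to 3 genes with the smallest p under 0.05, otherwise the 1 with the smallest p, and every tested TRPC channel. Alternatives changed the background correction, scaling, filter, source of values, choice of probe and variance model, added the replicate number, or left out each array. The number of arrays limits the precision.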

Additional observations from a re-analysis of the deposited data

How the results depend on the processing

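The log2 differences of the 8 members were recomputed under 15 alternatives, 120 values in all. Changes of filter, choice of probe or variance model, or adding the replicate number, left each member's difference unchanged. These alternatives could therefore not turn a direction, and their values count among those kept. In 108 of the 120 values the direction was kept, and in 12 it turned. None passed the threshold, with adjusted limma p-values from 0.216 to 1. The cause of the turns was not tested. They were 0.067 for Agtr1a, -0.13 for Gna11 and -0.16 for Plcb3 with local background subtracted; 0.00065 for Adra1b and -0.0070 for Plcb3 with median scaling; and 0.034 for Adra1b and 0.013 for Plcb1 with 75th percentile scaling. That last scaling moved the median of all genes from 0.0017 to 0.039, and both values lie below it, as Adra1b does below the median of 0.0055 with median scaling. With single arrays left out, values ranged from -0.061 to 0.031 for Adra1b, from -0.098 to 0.060 for Plcb1 and from -0.036 to 0.053 for Plcb3.

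Members at an unadjusted p under 0.05 numbered 1, and 0 with local background subtracted or in the authors' table, 2 (Edn1 and Ednrb) with a trend and robust variance, and 0 to 2 with 1 array left out (0 without either knockout array). The pathway list had 5, and 8 without a filter, 3 in the authors' table (0 of them among the 5), and 3 to 19 with 1 array left out, the most without the first wild-type array. Over all genes there were 1076, 585 higher and 491 lower, and 670 in the authors' table, 210 higher and 460 lower. The split was 397 and 676 with median scaling and 718 and 415 with 75th percentile scaling. With 1 array left out there were 444 to 2344, 250 to 1143 of them higher and 194 to 1201 lower, the fewest without the second knockout array and the most without the first wild-type array. Genes at an adjusted p under 0.05 numbered 0 to 1 with 1 array left out, the 1 being Hba-a2 without the second wild-type array, named after its value was seen. The 32 measurements above background all remained above background with the 99th percentile of the control spots or the mean plus 2 SD of the blank spots as the threshold.

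Replicate numbers are shared by the groups, but 2 pairs cannot show that they pair the samples. The correlation of the deviations of the same-numbered arrays from their group means was 0.097 across genes. With the replicate number as a block, 2 members had an unadjusted p under 0.05, Edn1 and Gna11, and 0 genes passed the adjusted threshold. Depth in the sense of counts does not apply to arrays. Members near the detection threshold, Adra1b above all, are limited by signal. So is Gna11 against its own local background, where its spots read 0.984 to 1.16 times that background.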
